A study of Mus musculus with 5 samples.

Results

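The CC chemokines Ccl2, Ccl7, Ccl8, Ccl11, Ccl6, Ccl3, Ccl4, Ccl5 and Ccl19 are 9 of the 55357 genes counted by droplet single-cell RNA sequencing of mouse tibialis anterior muscle. The genes were chosen by symbol, with earlier results on these libraries already known, among them lower Ccl2 and Ccl6 in the mural-like cells of frail mice. Frail and control values of these genes are therefore descriptions and support nothing. The cell groups were defined by other genes, but they too were chosen with earlier results known. Differences between cell groups, with their adjusted p-values, are therefore read as descriptions as well. All 5 libraries came from female C57BL/6 mice aged 26 months, 2 frail and 3 control animals, and the labels name no treatment or engineered allele. The 2 frail libraries had a score of at least 0.18 on an index of frailty, and the 3 control libraries had a score below 0.18. The series text describes a digested cell suspension and the sample protocol describes sorted nuclei, and which of these was loaded could not be settled from the sources used here.

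CC chemokines are small secreted proteins that draw leukocytes along a gradient by binding G protein-coupled receptors on the leukocyte surface. Ccl2 and Ccl7 attract monocytes, with Ccr2 as their main receptor. Ccl11 (eotaxin) attracts eosinophils through Ccr3, Ccl3, Ccl4 and Ccl5 attract monocytes and T cells, Ccl6 is a myeloid chemokine of rodents, and Ccl19 guides T cells and dendritic cells through Ccr7. In muscle these ligands are known for bringing monocytes and other leukocytes into injured tissue.

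In the GENCODE annotation of GRCm38, 8 of the 9 genes lie on chromosome 11. Ccl2 spans 82035571 to 82037453, Ccl7 spans 82045712 to 82047525, Ccl11 spans 82057823 to 82062955 and Ccl8 spans 82115185 to 82116799, all on the plus strand. Farther along are Ccl5 (83525778 to 83530518, minus strand), Ccl6 (83587882 to 83593087, minus strand), Ccl3 (83647844 to 83649355, minus strand) and Ccl4 (83662584 to 83664683, plus strand). Ccl19 lies on chromosome 4 at 42754525 to 42756577 on the minus strand, and because near-identical copies of it lie on the same chromosome its counts are uncertain. RefSeq start sites on GRCm38.p6 were matched for 4 of the 9 genes (Ccl8, Ccl6, Ccl3 and Ccl19). The 250 bases before the start are shown for Ccl8, Ccl6 and Ccl3, because these genes shared 1 pattern in the data, a level far higher in the C1qa-gated cells than in any other gated group. Capitals mark matches to TATAAA, the core promoter box, to GAGGAA, a core recognised by the myeloid factor PU.1 that reads TTCCTC where it lies on the reverse strand, and to CAGCTG, an E-box,, and positions count back from the last base before the start, -1.
Ccl8 promoter, chr11:82114935-82115184, plus strand: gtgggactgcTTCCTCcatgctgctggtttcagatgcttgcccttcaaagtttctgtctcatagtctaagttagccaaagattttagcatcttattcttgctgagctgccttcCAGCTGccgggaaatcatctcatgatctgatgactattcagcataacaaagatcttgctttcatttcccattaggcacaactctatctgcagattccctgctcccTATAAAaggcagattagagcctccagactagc
Ccl6 promoter, chr11:83593088-83593337, minus strand: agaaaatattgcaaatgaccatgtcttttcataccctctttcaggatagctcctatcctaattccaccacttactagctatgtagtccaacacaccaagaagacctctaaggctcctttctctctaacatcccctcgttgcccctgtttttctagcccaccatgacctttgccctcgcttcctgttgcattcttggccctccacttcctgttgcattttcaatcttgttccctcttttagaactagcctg
Ccl3 promoter, chr11:83649379-83649628, minus strand: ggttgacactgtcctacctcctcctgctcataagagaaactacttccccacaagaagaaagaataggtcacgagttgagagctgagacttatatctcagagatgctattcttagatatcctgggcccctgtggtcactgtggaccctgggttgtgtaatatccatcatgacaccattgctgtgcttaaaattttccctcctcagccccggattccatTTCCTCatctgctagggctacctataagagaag
The Ccl8 window held TATAAA at -32, GAGGAA on the reverse strand at -240 and CAGCTG at -137. In the Ccl3 window the only match was GAGGAA, on the reverse strand at -33, and the Ccl6 window held none of these letters. Of 32851 RefSeq windows of this length, 12.4% held TATAAA, 23.3% held GAGGAA and 13.0% held CAGCTG. The NF-kappaB consensus, searched on both strands and present in 3.90% of windows, was in none of the 3. These matches describe letters in the windows and carry no information on which factor was bound.

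The libraries held 9791 to 13303 barcodes and 68170531 to 90942121 unique molecular identifiers (UMIs). Barcodes with at least 200 genes and at most 10% mitochondrial UMIs were retained, 8650 to 12088 per library and 50460 in all, with a median of 5353 to 7005 UMIs per barcode. Between 17 and 35 barcodes were shared by any pair of libraries, at most 0.393% of the smaller library. Cells were placed in 6 gates, each requiring at least 2 UMIs of 1 gene and none of the other 5: Cdh5 (endothelial-like, 755 to 2180 cells per library), Pdgfra (fibro-adipogenic-like, 982 to 2089), Rgs5 (mural-like, 445 to 586), C1qa (macrophage-like, 131 to 336), Cd3e (T-cell-like, 4 to 50) and Pax7 (satellite-like, 27 to 104). Each gate's fixed markers were highest in their own gate, 7 of 7 for Cdh5, 7 of 7 for Pdgfra, 8 of 8 for Rgs5, 9 of 10 for C1qa, where the exception was the general leukocyte gene Ptprc, 10 of 10 for Cd3e and 7 of 7 for Pax7. The gates took 26.3% to 43.3% of the retained cells, and 45.8% to 59.2% had a single gate UMI or UMIs of several gate genes. The summed level of 7 myofibre markers, none of them at 0, moved with the groups in all retained cells: 101 to 685 CPM (UMIs of the gene scaled to a fixed library total) in the frail and 3026 to 12330 CPM in the control libraries, a gap seen in every gate. Its part in any frail and control difference below was not tested. Levels below are CPM of all UMIs in the sum named, listed as frail 1 and 2, then control 1, 2 and 3, and they compare cells and libraries for 1 gene, not genes with each other.

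Monocyte-attracting Ccl2 and Ccl7 were highest in the C1qa-gated cells and next highest in the Pdgfra-gated cells. Ccl2 in C1qa-gated cells was at 591 and 590 CPM in the frail and 665, 804 and 549 CPM in the control libraries. In Pdgfra-gated cells Ccl2 was at 203 and 174 CPM in the frail and 169, 226 and 287 CPM in the control libraries, so all 5 macrophage-like sums lay above all 5 fibro-adipogenic-like sums. Against the mean of the other 5 gates, with the library as a block, the log2 difference of Ccl2 was 3.41 in C1qa-gated cells (adjusted p = 3.30e-10, edgeR) and 1.37 in Pdgfra-gated cells (adjusted p = 7.11e-04). Pax7-gated cells had a mean Ccl2 level of 206 CPM, close to the 212 CPM of Pdgfra-gated cells, and their log2 difference of 0.84 did not pass (adjusted p = 0.078, but 0.0103 with gates at 1 UMI, 0.0233 when 1 UMI of each other gate gene was allowed, 6.96e-05 with no low-count filter and 0.0498 without frail 2). Rgs5-gated cells, at a mean of 125 CPM, were near the mean of the others (log2 difference 0.04, adjusted p = 0.961). Endothelial-like cells were lowest of the groups with many cells, at a mean of 24.3 CPM for Ccl2 (log2 difference -2.49), a call lost without control 3 (adjusted p = 0.109).

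Ccl7, which lies next to Ccl2 on the chromosome, followed the same order of gates. Its level in C1qa-gated cells was 357 and 249 CPM in the frail and 536, 722 and 536 CPM in the control libraries. Pdgfra-gated cells had 287 and 134 CPM in the frail and 253, 326 and 343 CPM in the control libraries. The ranges of these gates overlapped, but within each of the 5 libraries Ccl7 was higher in the C1qa-gated cells. The log2 difference from the mean of the other gates was 3.43 in C1qa-gated cells (adjusted p = 3.23e-11) and 2.37 in Pdgfra-gated cells (adjusted p = 4.94e-08), and Rgs5-gated cells were below that mean (-1.07, adjusted p = 0.0178), a call lost with gates at 1 UMI (0.0725), without frail 2 (0.107) and without control 3 (0.0998). Over the 30 gate-by-library sums Ccl7 was also the gene with the pattern most like that of Ccl2 among 11750 genes (Spearman's rho 0.91, a description, since sums of a gate or library are not independent).

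Within a gate, cells with a Ccl2 UMI more often also had a Ccl7 UMI than cells without, in each of the 5 libraries and in each of the 3 gates examined. Among Pdgfra-gated cells with a Ccl2 UMI, 45.0% to 62.2% per library had a Ccl7 UMI, against 18.2% to 31.7% of those without Ccl2. In C1qa-gated cells the shares were 39.3% to 65.2% with Ccl2 and 10.8% to 29.8% without. Rgs5-gated cells had 7.69% to 27.0% with and 2.94% to 14.0% without. Cells with more UMIs detect both genes more readily, and these shares were not matched for depth.

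Ccl8 was far higher in the macrophage-like gate than elsewhere and varied widely there between libraries. Its level in C1qa-gated cells was 2568 CPM in frail 1 and 309 CPM in frail 2, against 2318, 612 and 718 CPM in control 1, 2 and 3. Thus 1 library of each condition was high and the other 3 were low, and the highest was 8.30 times the lowest. The Pdgfra-gated cells came next at a mean of 40.8 CPM. The log2 difference from the mean of the other gates was 6.69 in C1qa-gated cells (adjusted p = 8.27e-21) and 0.97 in Pdgfra-gated cells (adjusted p = 0.0103, but 0.146 when 1 UMI of each other gate gene was allowed and 0.110 without control 3). Of 592 retained cells with at least 10 Ccl8 UMIs, 94.6% had at least 2 macrophage-list UMIs, against 25.5% of all retained cells. For the lymphatic endothelial list the shares were 85.5% and 5.18%. That list holds Lyve1, a hyaluronan receptor that some resident macrophages also carry. Other lists were raised too, among them the T-cell (71.8% and 5.71%), monocyte (55.7% and 8.14%) and dendritic lists (50.5% of the 592 cells). These shares therefore do not single out 1 cell type.

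Ccl11, the eosinophil attractant, was a gene of the fibro-adipogenic-like cells. Its level there was 1267 and 1399 CPM in the frail and 1097, 1199 and 983 CPM in the control libraries, above every other gate in every library. After each cell was thinned to 2000 UMIs, 67.6% to 77.6% of Pdgfra-gated cells had a Ccl11 UMI (83.1% to 90.0% unthinned), with 7 to 39 shallower cells left out per library. Cdh5-gated cells, taken as the background, had 2.84% to 4.78% thinned and 6.48% to 11.5% unthinned, with 71 to 198 cells left out. Median depth was 7328 to 8683 UMIs in Pdgfra-gated and 3422 to 4267 UMIs in Cdh5-gated cells. Rgs5-gated cells came next for Ccl11, at 152 and 180 CPM in the frail and 323, 268 and 171 CPM in the control libraries. The log2 difference from the mean of the other gates was 4.73 in Pdgfra-gated cells (adjusted p = 1.00e-23) and 1.63 in Rgs5-gated cells (adjusted p = 4.47e-10), and C1qa-gated cells were below (-1.40). The genes most like Ccl11 over the 30 sums were P3h3, Rarres2 and Col6a2 (rho 0.91, 0.91 and 0.90).

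Ccl6, Ccl3 and Ccl4 were genes of the C1qa-gated cells. Ccl6 was at 1679 and 2235 CPM in the frail and 3669, 3077 and 2340 CPM in the control libraries, and the next gate, Rgs5, had a mean of 98.4 CPM. The log2 difference from the mean of the other gates was 6.60 for Ccl6 (adjusted p = 1.05e-23). After thinning, 79.3% to 89.8% of C1qa-gated cells had a Ccl6 UMI (87.0% to 94.9% unthinned), against 3.08% to 8.61% of Rgs5-gated, 1.57% to 6.84% of Cdh5-gated and 1.20% to 6.06% of Pdgfra-gated cells. The last 3 ranges overlap and are read as background. Lyz2, Ccl9 and Retnla had the patterns most like that of Ccl6 (rho 0.90, 0.88 and 0.88).

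Ccl3, a Ccr1 ligand, was at 203 and 522 CPM in the frail and 266, 677 and 245 CPM in the control libraries in C1qa-gated cells. Its log2 difference from the mean of the other gates was 6.97 (adjusted p = 1.89e-21). Ccl4, its close relative, was at 1475 and 810 CPM in the frail and 572, 1176 and 1171 CPM in the control libraries, a log2 difference of 5.99 (adjusted p = 2.54e-13). The neighbouring genes shared cells: 52.3% to 76.9% of C1qa-gated cells with a Ccl3 UMI had a Ccl4 UMI, against 14.7% to 27.3% of those without. For Ccl8 and Ccl4 the order was the opposite, with Ccl4 in 15.3% to 38.2% of C1qa-gated cells with a Ccl8 UMI and in 33.3% to 40.4% of those without, although in control 3 both shares were 38.2%. A few cells held most of both transcripts: the 1% of retained cells with most UMIs of the gene carried 78.3% to 92.4% of all Ccl3 and 76.7% to 91.3% of all Ccl4, but only 11.5% to 20.5% of Ccl11.

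Ccl5, a product of cytotoxic lymphocytes, was highest in the Cd3e-gated cells. Its level there was 3324 and 9540 CPM in the frail and 13190, 8146 and 1722 CPM in the control libraries. These sums rest on 8, 19, 4, 10 and 50 cells, with 173, 1193, 291, 637 and 442 Ccl5 UMIs, and single cells held up to 416 of them. The log2 difference from the mean of the other gates was 10.04 for Ccl5 (adjusted p = 3.95e-11) and 2.76 for Ccl4 (adjusted p = 3.99e-04, but 0.0551 without control 3). Of 121 retained cells with at least 10 Ccl5 UMIs, 98.3% had at least 2 UMIs of the T-cell list, against 5.71% of all retained cells. For the natural killer list the shares were 87.6% and 0.5%. The macrophage (92.6% and 25.5%) and monocyte lists (60.3% and 8.14%) were raised too. The T-cell and macrophage lists both hold the general leukocyte gene Ptprc, so their shares do not tell these cell types apart.

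Ccl19, the Ccr7 ligand, was highest in the Pax7-gated cells, at 80.4 and 30.9 CPM in the frail and 73.5, 93.9 and 68.4 CPM in the control libraries. No cell there held more than 4 Ccl19 UMIs. The log2 difference from the mean of the other gates was 5.81 in Pax7-gated (adjusted p = 3.95e-13), 3.19 in Pdgfra-gated (adjusted p = 1.72e-07) and 2.04 in Rgs5-gated cells (adjusted p = 0.0137, but 0.246 with gates at 1 UMI and 0.0501 without control 1). In Cd3e-gated cells Ccl19 was at 0 UMIs in all 5 libraries, where a count of 0 allows up to 11.7 CPM in the library with most cells and up to 136 CPM in the library with fewest.

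In these contrasts 6 of the 9 chemokines were higher in C1qa-gated cells, where 27.9% of the 13069 tested genes were. The counts were 5 of 9 in Pdgfra-gated cells beside 31.6% of tested genes, 2 in Rgs5-gated cells beside 28.4%, 2 in Cd3e-gated cells beside 11.3%, 1 in Pax7-gated cells beside 17.6% and 0 in Cdh5-gated cells beside 28.0%. In Cdh5-gated cells 7 of the 9 were lower, and Ccl5 and Ccl19 did not pass (log2 differences of -1.94 and -2.44). Besides Ccl2, the Cdh5 calls of Ccl8, Ccl3 and Ccl6 were lost under some alternative: Ccl8 without frail 1 (adjusted p = 0.0586) or control 3 (0.227), Ccl3 without frail 2 (0.122) or control 3 (0.0880), and Ccl6 with gates at 1 UMI (0.0768).

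**Figure D1:**
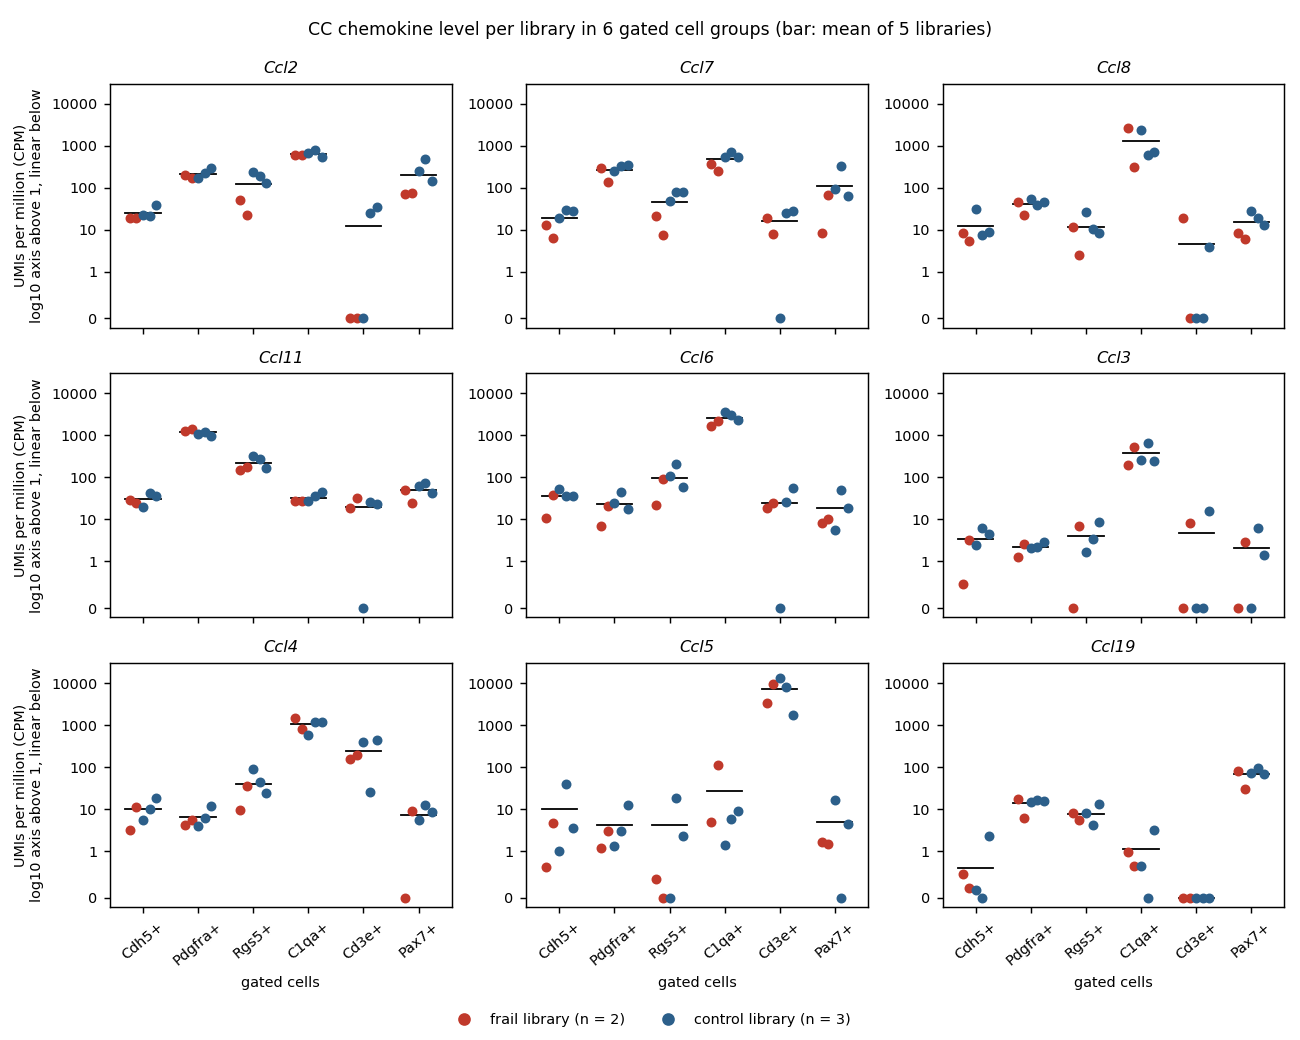
Level of each chemokine in CPM (vertical axis, logarithmic above 1 and linear below) in the 6 gated cell groups (horizontal axis); each point is 1 library and each bar the mean of 5. Ccl6, Ccl3, Ccl4 and Ccl8 peak in C1qa-gated cells, Ccl11 in Pdgfra-gated cells, Ccl5 in Cd3e-gated cells and Ccl19 in Pax7-gated cells.

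A gate with a high level per UMI need not hold most of a gene's transcripts. The C1qa-gated cells held 1.49% to 4.35% of all UMIs of a library but, on average over libraries, 34.9% of Ccl3, 31.3% of Ccl4, 28.6% of Ccl6 and 26.9% of Ccl8 UMIs. They held 9.40% of Ccl2 and 7.15% of Ccl7 UMIs, smaller shares but above the gate's share of all UMIs in every library. The Pdgfra-gated cells, with 10.8% to 19.5% of all UMIs, held 40.3% of Ccl11, 28.2% of Ccl7, 28.0% of Ccl19 and 21.7% of Ccl2 UMIs. Rgs5-gated cells held 2.38% of Ccl2, Cd3e-gated cells 19.9% of Ccl5 and Pax7-gated cells 4.95% of Ccl19 UMIs. Barcodes with a single gate UMI or UMIs of several gate genes held 50.7% to 69.2% of all UMIs, so a large part of every gene's transcripts was in cells not assigned to a gate.

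**Figure D2:**
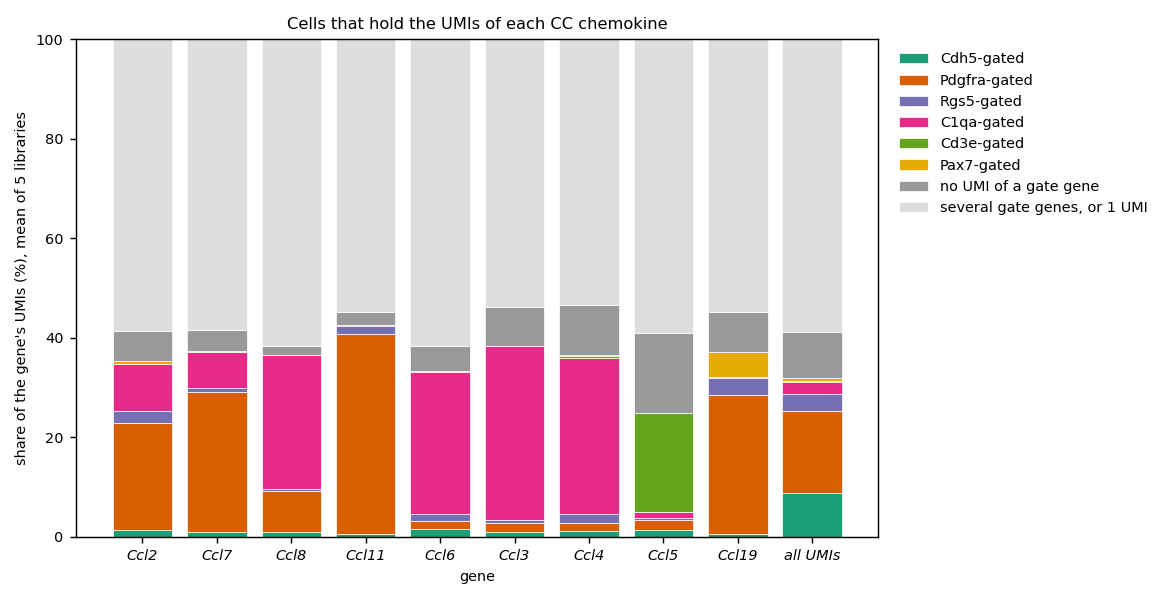
Share of each chemokine's UMIs (stacked bars, vertical axis in percent, mean of 5 libraries) by cell group, beside the share of all UMIs. The macrophage-like share is above its share of all UMIs for Ccl3, Ccl4, Ccl6, Ccl8, Ccl2 and Ccl7, and the fibro-adipogenic-like share is largest for Ccl11.

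The study set frail against control mice. Over all retained cells, Ccl2 and Ccl7 had lower levels in each frail library than in any of the 3 controls. Ccl2 was at 126 and 122 CPM in the frail and 177, 208 and 225 CPM in the control libraries, 124 ± 3.07 (SD, n = 2) against 203 ± 23.9 (SD, n = 3). The log2 change was -0.73 (SE 0.17), with an adjusted p of 0.537 by edgeR and 0.00946 by DESeq2. Ccl7 was at 132 and 80.2 CPM in the frail and 179, 220 and 216 CPM in the control libraries, a log2 change of -0.95 (SE 0.27) with adjusted p = 0.652 by edgeR and 0.084 by DESeq2. Both frail libraries were below all controls for 10.5% of the 19989 tested genes, on the scale of normalised CPM. In sums over all cells, fewer cells of a type and less RNA per cell cannot be told apart.

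The other 7 chemokines had overlapping groups in all retained cells. Ccl6 had 89.8 and 164 CPM in the frail and 422, 331 and 157 CPM in the control libraries (log2 change -1.31, SE 0.48, adjusted p = 0.874). Ccl8 had 104 and 48.6 CPM in the frail and 241, 70.0 and 58.7 CPM in the control libraries (-0.70, SE 0.75). Ccl11 had 490 and 555 CPM against 416, 500 and 479 CPM (0.14). The remaining log2 changes were -0.24 for Ccl3, -0.11 for Ccl4, -0.06 for Ccl5 and -0.39 for Ccl19, each with an adjusted p above that of Ccl6. In all, 8 of the 9 had a negative log2 change, with a median of -0.39 beside 0.00 over all tested genes, of which 49.7% had a negative change. No gene at all passed the threshold in this fit, 0.0% of those tested, while 1119 had an unadjusted p under 0.05 and DESeq2 called 290. Macrophage-like cells made up 1.65% ± 0.35 (SD, n = 2) of frail and 2.71% ± 1.02 (SD, n = 3) of control cells (exact two-sided permutation p = 0.3, with 0.1 the smallest possible). Both frail shares, 1.40% and 1.90%, lay below all 3 control shares, the highest of them 3.88%, and with gates at 1 UMI the means were 2.40% and 4.46% (p = 0.1, exact permutation test). The 10 macrophage markers together were at 1011 to 1634 CPM in frail and 1058 to 2923 CPM in control libraries, none of them at 0. Their part in the Ccl6 and Ccl2 values over all cells was not tested.

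**Figure D3:**
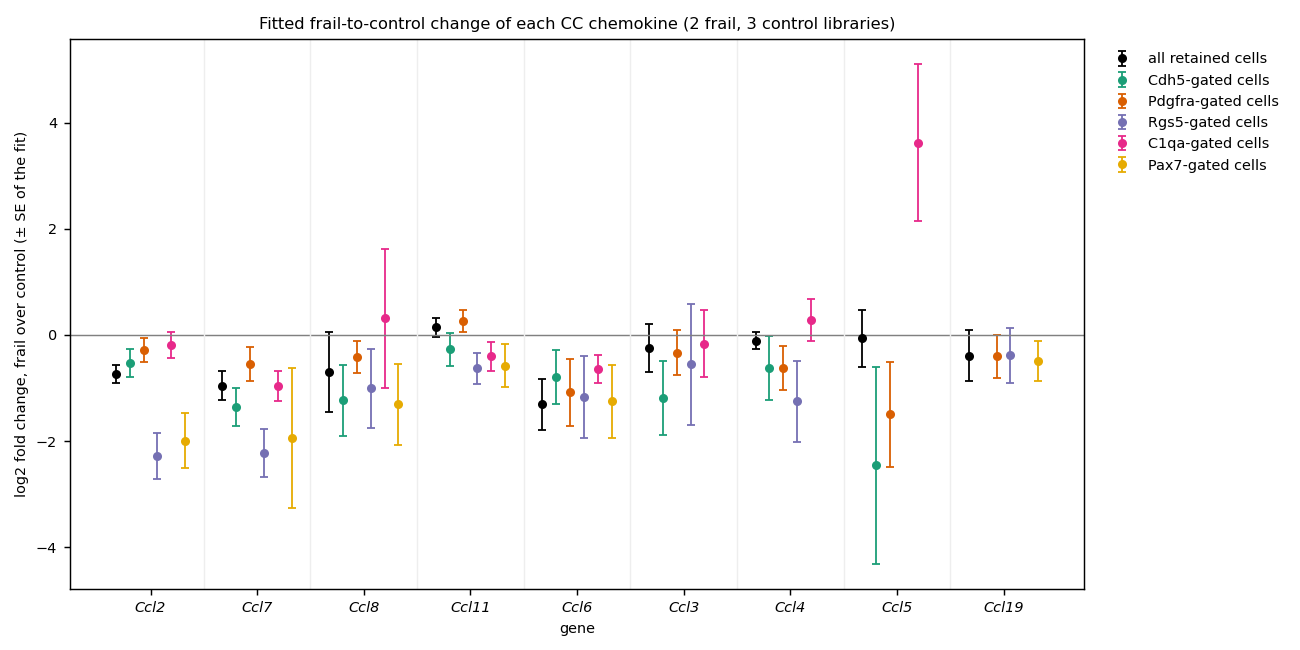
Log2 change of each chemokine, frail against control, with its SE, in all retained cells and in 5 gates. Most points lie below 0, with the lowest Ccl2 and Ccl7 values in the Rgs5-gated and Pax7-gated cells and no chemokine past the edgeR threshold.

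Within the mural-like Rgs5-gated cells, Ccl2 and Ccl7 were again lower in both frail libraries. Ccl2 was at 51.9 and 22.6 CPM in the frail and 235, 185 and 132 CPM in the control libraries, 37.2 ± 20.7 (SD, n = 2) against 184 ± 51.2 (SD, n = 3). The log2 change was -2.28 (SE 0.43), with adjusted p = 0.254 by edgeR, 7.89e-06 by DESeq2 and 1.05e-12 by edgeR with no low-count filter. After thinning to 2000 UMIs, 5.13% and 3.19% of frail and 14.9%, 15.8% and 11.0% of control Rgs5-gated cells had a Ccl2 UMI. Unthinned shares were 11.0% and 5.56% against 19.8%, 20.5% and 20.8%, with 49 to 97 shallower cells left out per library. The Wilson 95% intervals of the unthinned shares were 8.63% to 13.9% and 3.82% to 8.02% in the frail and 16.3% to 23.7%, 17.2% to 24.2% and 17.7% to 24.3% in the control libraries, and cover counting error only. The thinned share in Cdh5-gated cells, taken as the background, was 1.49% and 1.82% for the frail mice, against 2.58%, 3.98% and 4.82% for the controls. Unthinned, the Cdh5 shares ran from 3.41% to 8.87% over the 5 libraries. Median depth was 3126 to 4072 UMIs in Rgs5-gated cells. Both gates thus had a lower share in the frail libraries, and the Rgs5 share was above the Cdh5 share in all 5.

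Ccl7 in Rgs5-gated cells was at 21.2 and 7.37 CPM in the frail and 47.3, 78.8 and 79.4 CPM in the control libraries (log2 change -2.22, SE 0.45, adjusted p = 0.288 by edgeR, 3.14e-04 by DESeq2 and 3.31e-12 by edgeR with no low-count filter). Ccl11 was at 152 and 180 CPM against 323, 268 and 171 CPM, with overlapping groups (-0.63, SE 0.29, adjusted p = 0.718). Ccl6 was at 22.0 and 93.4 CPM against 109, 207 and 60.4 CPM, also overlapping (-1.17, SE 0.78, adjusted p = 0.872). The log2 changes of the others were -1.01 for Ccl8, -0.55 for Ccl3, -1.25 for Ccl4 and -0.38 for Ccl19, and Ccl5 was too low to test. All 8 tested chemokines had a negative log2 change, with a median of -1.09 beside a median of 0.01 over all tested genes, of which 48.8% had a negative change. Beside this stand 0.0342% of 11708 genes called and 11.2% with both frail libraries below every control. The 10 macrophage markers together were at 363 to 518 CPM in frail and 289 to 715 CPM in control Rgs5-gated cells, none of them at 0. Taken singly, 10 of 10 had a negative log2 change there, with a median of -0.87, for 5 both frail values lay below every control value, and 4 had an unadjusted p under 0.05. Of all 11708 genes, 822 had an unadjusted p under 0.05. The 7 fibro-adipogenic markers summed to 2148 to 3299 CPM in frail and 2692 to 6259 CPM in control Rgs5-gated cells. The part of either marker set in the Ccl2, Ccl7, Ccl11 and Ccl6 values of the whole gate was not tested.

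Rgs5-gated cells without a UMI of any of 7 macrophage genes gave the same order for Ccl2 but not for Ccl7. These cells held 55.8% and 44.3% of the gated UMIs in the frail and 26.4%, 21.0% and 30.9% in the control libraries. Ccl2 was at 36.4 and 21.1 CPM in the frail and 163, 179 and 118 CPM in the control libraries, a log2 change of -2.39 with adjusted p = 0.0639. For Ccl7 the values were 24.3 and 5.55 CPM against 15.7, 61.2 and 74.3 CPM, so frail 1 lay above control 1 (log2 change -1.68). Ccl6 was at 7.15 and 17.8 CPM against 28.3, 32.6 and 18.1 CPM, under the levels in the whole gate in all 5 libraries.

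**Figure D4:**
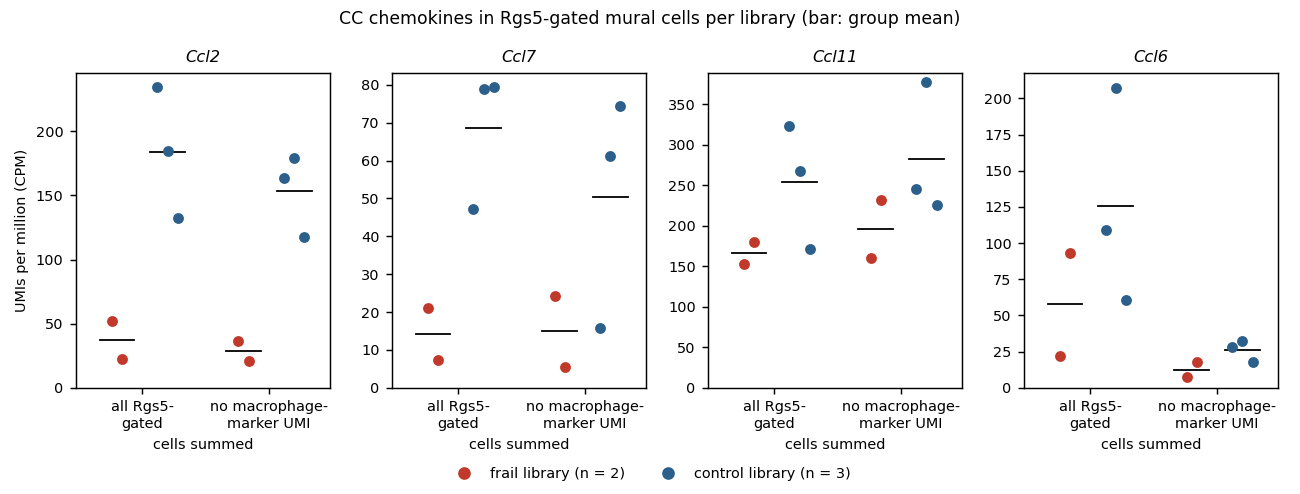
CPM of Ccl2, Ccl7, Ccl11 and Ccl6 per library in Rgs5-gated cells, in the whole gate and in cells without a macrophage-marker UMI; points are libraries and bars group means. Frail Ccl2 points lie below all control points in both sets, at 21.1 to 51.9 CPM against 118 to 235 CPM.

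Pax7-gated cells gave a like pattern on fewer cells. Ccl2 was at 70.3 and 73.5 CPM in the frail and 249, 494 and 141 CPM in the control libraries (log2 change -1.99, SE 0.52, adjusted p = 0.874 by edgeR and 0.0114 by DESeq2), on 94 to 98 frail and 27 to 104 control cells. By edgeR the adjusted p was 0.00349 without frail 1 and 0.00709 without frail 2, where the lone frail library is assumed to vary like the controls. Gating at 1 UMI gave 0.0153, and allowing 1 UMI of each other gate gene gave 0.00762, and no low-count filter gave 9.66e-07. No chemokine passed in this gate with RLE size factors, library totals only, the replicate block or a limit of 5% mitochondrial UMIs. The same held with doublets removed and without control 1, 2 or 3. Ccl8 was at 8.37 and 5.88 CPM against 28.3, 18.8 and 13.1 CPM (-1.31), and Ccl7 at 8.37 and 66.1 CPM against 90.5, 332 and 64.0 CPM (-1.95). Ccl11 (-0.58), Ccl6 (-1.25) and Ccl19 (-0.49) completed the 6 tested, with a median of -1.28 beside 0.01 over all tested genes, 0.0704% of 7098 genes called and 9.02% with both frail libraries below every control. Macrophage markers summed to 58.6 to 128 CPM in frail and 100 to 207 CPM in control Pax7-gated cells, and myofibre markers to 31.8 to 70.6 CPM against 481 to 3459 CPM. Their part in these values was not tested.

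In the fibro-adipogenic-like cells, Ccl11 was higher in both frail libraries, 1333 ± 92.9 CPM (SD, n = 2) against 1093 ± 108 CPM (SD, n = 3), a log2 change of 0.26 (SE 0.21, adjusted p = 0.997). The other 8 had negative log2 changes there with overlapping groups, among them Ccl2 at -0.28, Ccl7 at -0.55, Ccl8 at -0.41, Ccl6 at -1.08 and Ccl19 at -0.40, and Ccl3 at -0.34, Ccl4 at -0.62 and Ccl5 at -1.50. A single gene of 14832 passed, 0.00674%, and 9.02% had both frail libraries below every control, while 9.24% had both above. The 10 macrophage markers moved with the groups here too, 10 of 10 with a negative log2 change beside 49.1% of all tested genes. Their median was -0.93, with 6 not overlapping. In sum these markers were at 68.5 to 170 CPM in frail against 101 to 242 CPM in control cells, none of them at 0. Their part in these values was not tested.

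In macrophage-like cells, Ccl7 and Ccl6 were lower in both frail libraries. The C1qa-gated values given above amount to 303 ± 76.7 CPM (SD, n = 2) against 598 ± 107 CPM (SD, n = 3) for Ccl7 (log2 change -0.96, SE 0.28, adjusted p = 0.896, but 0.0351 with no low-count filter) and a log2 change of -0.64 (SE 0.27) for Ccl6. Ccl2 (-0.18), Ccl3 (-0.17) and Ccl11 (-0.40) were close to or below 0, and Ccl4 (0.27) and Ccl8 (0.31, SE 1.30) above. Ccl5 had a log2 change of 3.62 (SE 1.48) that came from frail 2, at 115 CPM beside 1.39 to 8.85 CPM in the other 4 libraries, and the natural killer list summed to 0 to 32.0 CPM in frail and 0 to 0.7 CPM in control C1qa-gated cells. Of 10142 genes 0.0% passed and 9.52% had both frail libraries below every control.

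Endothelial-like cells had low levels throughout. Ccl2 was at 19.0 and 19.1 CPM in the frail and 22.9, 21.1 and 39.2 CPM in the control libraries (log2 change -0.53), and Ccl7 at 13.0 and 6.34 CPM against 19.1, 28.9 and 27.2 CPM (-1.36, SE 0.36, adjusted p = 0.66, but 0.00134 with no low-count filter). The others were at -1.24 for Ccl8, -0.27 for Ccl11, -0.80 for Ccl6, -1.19 for Ccl3, -0.62 for Ccl4 and -2.45 for Ccl5, with 0.0% of 13123 genes called and 7.7% with both frail libraries below every control. Of all 13123 genes, 48.0% had a negative log2 change and 448 had an unadjusted p under 0.05. In this gate 10 of 10 macrophage markers had a negative log2 change, with a median of -0.94, 6 not overlapping and 6 at an unadjusted p under 0.05. In sum these markers were at 89.9 to 262 CPM in frail against 181 to 299 CPM in control cells, none of them at 0. Their part in the endothelial-like values was not tested. Among Cd3e-gated cells only Ccl5 (-0.39) and Ccl4 (-0.77) could be tested, with 0.0% of 1360 genes called and 6.4% with both frail libraries below.

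Whether the frail and control difference itself differed between gates was tested on within-library differences with limma. For Ccl2 the difference between the change in Rgs5-gated and that in Pdgfra-gated cells was -2.10 log2 units (SE 0.54, adjusted p = 0.952). It was -2.20 (SE 0.34, adjusted p = 0.191) against C1qa-gated and -1.88 (adjusted p = 0.734) against Cdh5-gated cells. For Ccl7 the differences were -1.68 against Pdgfra-gated (SE 0.19, adjusted p = 0.0837, and 0.0385 without control 3), -1.36 against C1qa-gated (adjusted p = 0.441) and -0.93 against Cdh5-gated cells (adjusted p = 0.656). Differences of the other tested chemokines ran from -1.51 (Ccl4 against C1qa-gated) to 0.45 (Ccl3 against Cdh5-gated cells). Among them, Ccl11 was at -0.84 against Pdgfra-gated (adjusted p = 0.952) and Ccl8 at -0.96 against C1qa-gated cells (adjusted p = 0.752). Without a block, none passed with all 5 libraries, and 0.0% of genes did in any of the 3 fits. The Ccl2 and Ccl7 changes are thus not shown to be particular to the mural-like cells. Once libraries were blocked on replicate number, the Ccl2 difference from Pdgfra-gated cells passed, but that fit rests on the same-numbered pairs alone. At an unadjusted p under 0.05 the fits held 557 (Pdgfra), 593 (C1qa) and 661 (Cdh5) genes.

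Other genes of the chemokine system were read from lists chosen with the 9 genes. Among other CC ligands 10 of 12 could be tested over all retained cells, 8 had a negative log2 change and 0 passed. Ccl9, a myeloid ligand, was at 31.1 and 72.6 normalised CPM in the frail and 172, 165 and 71.1 in the control libraries (log2 change -1.39). Ccl24, a macrophage eotaxin, was at 12.4 and 24.2 against 51.3, 43.4 and 14.6 normalised CPM, Ccl12 at 17.4 and 4.80 against 18.2, 9.25 and 12.8, and Ccl25 at 9.50 and 9.24 against 7.52, 7.88 and 9.15. Among these the groups overlapped except for Ccl25, which was higher in both frail libraries, as were 9.48% of all tested genes. Of the tested ligands under 3 CPM, Ccl1, named after its values were seen, was lower in both frail libraries, at 0 and 0.014 against 0.292, 0.448 and 0.427 normalised CPM. Across gates, Ccl12, Ccl24 and Ccl9 were higher in C1qa-gated cells (log2 differences of 9.52, 6.98 and 6.63). Ccl21a, a lymphatic ligand with near-identical copies, was higher in Cdh5-gated (6.12) and Rgs5-gated cells (2.48).

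Receptors were low in all cells. Of 10 CC receptors 6 could be tested, 5 had a negative log2 change and 0 passed. Ccr2, the monocyte receptor for Ccl2 and Ccl7, was at 12.9 and 33.7 normalised CPM in the frail and 41.5, 36.2 and 18.4 in the control libraries, and Ccr1 at 4.10 and 3.28 against 12.1, 9.42 and 3.46. The Ccr2 groups overlapped, and for Ccr1 frail 1 lay above control 3. Both receptors were higher in C1qa-gated cells (log2 differences of 5.05 for Ccr2 and 5.29 for Ccr1), and Ccr2 also in Cd3e-gated cells (3.96). Of the 5 atypical receptors, which bind chemokines without G protein signalling, 4 had a negative log2 change and 0 passed. Ackr3 was at 126 and 165 against 233, 226 and 156 normalised CPM, Ackr1 at 23.8 and 18.0 against 32.9, 28.1 and 28.2, Ackr2 at 12.9 and 12.8 against 22.0, 14.7 and 12.9, Ackr4 at 2.45 and 1.48 against 8.12, 3.12 and 9.99, and Ccrl2 at 17.1 and 21.7 against 18.1, 21.1 and 16.6. For Ackr1 and Ackr4 each frail value lay below all 3 control values, beside 10.5% of all tested genes. Ackr2, which scavenges inflammatory CC ligands, was higher in Pdgfra-gated cells (4.81). Ackr3 was higher in Pdgfra-gated (2.75), Cdh5-gated (1.14) and Pax7-gated cells (0.75). Ackr1, the venular atypical receptor, was higher in both Pdgfra-gated (3.41) and Cdh5-gated cells (2.27).

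Targets of NF-kappaB, the inflammatory factor family known to drive Ccl2, were counted beside the chemokines. Of the 11708 genes tested in Rgs5-gated cells, 48.8% had a negative log2 change and 822 had an unadjusted p under 0.05. All 20 listed targets had a negative log2 change there, with a median of -1.19, 10 had an unadjusted p under 0.05 and 0 passed. The 3 with the smallest p were Birc3 (-1.48), Nfkbiz (-1.19) and Irf1 (-1.20). Of 20 immediate early genes, which respond to dissociation and stimulation, 19 had a negative log2 change there (median -0.68), led by Klf4 at -1.18 (adjusted p = 0.199). In Pax7-gated cells 16 of 17 tested NF-kappaB targets were negative (median -0.74), but only 5 of 19 immediate early genes were (median 0.18), beside 49.3% of all tested genes. In C1qa-gated cells 9 of 19 NF-kappaB targets were negative, with a median of 0.01, beside 49.8% of all tested genes. Of the 19989 genes tested over all retained cells, 49.7% were negative and 1119 had an unadjusted p under 0.05. There 17 of 20 NF-kappaB targets were negative (median -0.40, with 8 at an unadjusted p under 0.05 and 0 passing), among them Il6 (-1.37), Ptgs2 (-1.37) and Ptx3 (-1.81). So were 8 of 10 genes of a mixed cytokine list (Csf1, Csf2, Il1b, Il1a, Tnf, Il34, Cx3cl1, Ifng, Il33 and Tslp, median -0.27) and 10 of 10 macrophage markers (median -0.82). Whether these genes and Ccl2 were low together for 1 reason was not tested.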

How the data were processed

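UMI counts per gene and barcode were used as deposited, 1 matrix per library; per the submitters' processing notes, Cell Ranger 7.0.0, Seurat 4.1.2 and GRCm38 were named. How genes were annotated for counting is not given in the sources used here. Per the series text the libraries are separate mice. Counts were summed per library over retained cells and over 6 gates, and tested with edgeR 4.0.16 (quasi-likelihood, robust, TMM factors, filterByExpr, Benjamini-Hochberg over all genes tested, threshold 0.05) in R 4.3.3. Gates were compared in 30 sums with library as a block. Differences between gates in the frail effect used limma 3.58.1 on within-library differences of log2 CPM (prior count 2). DESeq2 1.42.0, other scalings, filters, gates, doublet removal, the replicate block and leaving out each library were alternatives. Doublets were kept in the main sums. Cell shares used exact permutation tests over 10 ways. The tests were run on simulated counts first.

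The 9 genes, and the lists, tests and gates, were chosen with earlier results of these data known. In the frail and control comparisons each of the 9 that could be tested is named. Contrasts between gates, and differences in frail effect between gates, are given only in part. Listed CC genes are named where they reach 3 CPM in all cells, except 1 that is not reported here, other lists by their 3 smallest p, and likeness by the 3 highest correlations. Limits from a count of 0 (3 counts) cover counting error only.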

Additional observations from a re-analysis of the deposited data

How the results depend on the processing

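Among the values of the 9 chemokines under alternatives, 1203 kept their direction and side of the threshold, 37 passed only under an alternative, 36 lost a call and 89 changed sign, all of these last with no call in either fit except Ccl4 in Rgs5-gated cells against the other gates, which passed with gates at 1 UMI (adjusted p = 0.0485). The cause of these changes was not tested. Frail and control counts of called genes, 0 to 5 in the main fits, were 290 (all cells), 59 (Cdh5), 47 (Pdgfra), 90 (Rgs5), 7 (C1qa) and 13 (Pax7) with DESeq2. With no low-count filter they were 15 (all cells), 143 (Cdh5), 176 (Pdgfra), 269 (Rgs5), 110 (C1qa), 15 (Cd3e) and 47 (Pax7). Gates at 1 UMI gave 19 (Cdh5), 0 (Rgs5) and 9 (Pax7), and gates that allowed 1 UMI of each other gate gene gave 4 (Cdh5), 4 (Pdgfra) and 0 (Rgs5). A limit of 5% mitochondrial UMIs gave 0 (Rgs5) and 3 (Pax7), and cells without macrophage-marker UMIs 2 (Pdgfra) and 0 (Rgs5). The Rgs5-gated share of cells, frail over control, was -0.18 on the log2 scale with gates at 1 UMI, and the C1qa-gated share was -0.72 with the main gates and -0.89 with gates at 1 UMI.

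The labels link same-numbered samples by number only. Their deviations from the group means correlated at -0.0134 and 0.166 over all cells and -0.0654 and 0.153 in Pdgfra-gated cells. The deviations of the 2 frail libraries mirror each other, so these correlations cannot show whether the samples were paired. The control library with no frail partner of its number is fitted exactly under such a block. The frail effect then rests on 2 frail and 2 control libraries, so the blocked counts and adjusted p-values carry very little replication. Blocking on the replicate number gave counts of 366 (all cells), 169 (Pdgfra), 90 (Rgs5), 28 (C1qa) and 72 (Cd3e), and 12 and 2 for the differences of Rgs5 from Pdgfra and Cdh5. Under the block, Ccl2 in Rgs5-gated cells had an adjusted p of 0.00176 and its difference from Pdgfra-gated cells 0.00984, and Ccl6 passed in all (0.0196), Pdgfra-gated (1.63e-04) and Rgs5-gated cells (0.0372), as did Ccl8 in all (0.0453) and Ccl5 in C1qa-gated cells (0.0316). Signs changed under the block for Ccl5 in all (0.013), Ccl3 and Ccl19 in Rgs5-gated (0.032 and 0.096), Ccl8 in C1qa-gated (-0.43) and Ccl4 in Cd3e-gated cells (0.40), and for the Ccl3 difference of Rgs5 from C1qa (0.0047).

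Other sign changes of frail effects were as follows. At 5% mitochondrial UMIs, Ccl3, Ccl4 and Ccl5 in all cells were at 0.040, 0.087 and 0.10, and without doublets Ccl5 was at 0.029. Gates at 1 UMI gave Ccl5 in Cdh5 0.48, Ccl3 and Ccl4 in Rgs5 2.12 and 0.42, Ccl3 in C1qa 0.070 and Ccl4 in Cd3e 0.060. The looser gate gave Ccl8 in Rgs5 1.04, Ccl3 in C1qa 0.29, and Ccl11 and Ccl6 in Pax7 0.10 and 0.90. Without macrophage-marker UMIs Ccl4 in Rgs5 was at 0.24. Of the contrasts between gates, Rgs5 had Ccl2 at -0.061 (gates at 1 UMI) and -0.012 (looser gate) and Ccl4 at 0.86 (gates at 1 UMI) and 0.0013 (RLE size factors). Ccl3 in Cd3e was at 0.24 (gates at 1 UMI) and 0.0079 (RLE), and C1qa had Ccl19 at 0.22 (gates at 1 UMI) and Ccl5 at -0.19 (looser gate). For frail effects of Rgs5 less those of another gate, gates at 1 UMI gave 0.086, 1.95 and 0.76 for Ccl6, Ccl3 and Ccl4 (Pdgfra), 0.65 and 1.43 for Ccl6 and Ccl4 (Cdh5), and 1.74 and 0.18 for Ccl3 and Ccl4 (C1qa). The looser gate gave 1.08, 0.97, 0.11 and 0.029 for Ccl8, Ccl6, Ccl3 and Ccl4 (Pdgfra), 1.99 and 0.61 for Ccl8 and Ccl6 (Cdh5), and 1.30, 0.33 and 0.22 for Ccl8, Ccl11 and Ccl6 (C1qa). A prior count of 0.5 gave -0.16 for Ccl3 (Cdh5).

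Leaving out 1 library at a time moved the counts of called genes to 0 to 17 in Cdh5 (17 without frail 2), 0 to 48 in Rgs5 (48 without control 3, 0 without either frail library), 0 to 13 in C1qa (13 without control 2), 0 to 44 in Cd3e (44 without control 3) and 0 to 69 in Pax7 (69 without frail 1, 0 without control 3). The differences of Rgs5 from Pdgfra had 0 to 7 and from C1qa 0 to 2. Frail effects that changed sign ranged, in all cells, from -1.42 to 0.25 for Ccl8, -0.79 to 0.15 for Ccl3, -0.28 to 0.045 for Ccl4, -0.68 to 0.45 for Ccl5 and -1.41 to 0.20 for Ccl19. Ranges in gates were -4.41 to 0.31 for Ccl5 in Cdh5, -1.04 to 0.026, -0.89 to 0.060 and -1.38 to 0.17 for Ccl8, Ccl3 and Ccl19 in Pdgfra, -6.56 to 0.51 and -0.76 to 0.088 for Ccl3 and Ccl19 in Rgs5, -2.08 to 1.21, -0.87 to 0.49 and -0.35 to 0.71 for Ccl8, Ccl3 and Ccl4 in C1qa, -1.37 to 0.40 and -1.41 to 0.25 for Ccl4 and Ccl5 in Cd3e, and -1.27 to 0.038 for Ccl19 in Pax7. Ccl2 in Rgs5 stayed between -3.09 and -1.77. Contrasts between gates ranged from -0.32 to 0.35 and -0.62 to 0.34 for Ccl2 and Ccl4 in Rgs5, -2.20 to 1.12 for Ccl5 in C1qa, -1.43 to 0.37 for Ccl3 in Cd3e and -0.079 to 0.77 for Ccl7 in Pax7. The differences of frail effects ranged from -0.35 to 0.11, -1.74 to 0.60, -1.62 to 0.029 and -0.12 to 0.81 for Ccl6, Ccl3, Ccl4 and Ccl19 (Pdgfra), -0.86 to 0.41, -0.73 to 0.18, -0.59 to 0.24, -0.27 to 1.05 and -1.41 to 0.36 for Ccl8, Ccl11, Ccl6, Ccl3 and Ccl4 (Cdh5), and -0.59 to 0.15, -1.52 to 0.18 and -1.84 to 0.20 for Ccl11, Ccl6 and Ccl3 (C1qa). Cd3e-gated sums of 4 to 50 cells and Ccl19 counts of at most 4 UMIs per Pax7-gated cell limit what these values can show.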

Other observations

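Ccl27a, a skin-associated CC ligand with near-identical copies, was at 13.8 and 10.3 normalised CPM over all retained cells of the frail and 10.6, 13.1 and 232 of the control libraries, so control 3 stood apart. Ccl21a, the Ccr7 ligand of lymphatic endothelium, was at 78.1 and 16.8 in the frail and 15.6, 62.6 and 27.1 in the control libraries, where 1 library of each condition was high. Most Ccl5 sat in few cells: the 1% of retained cells with most Ccl5 UMIs carried 95.9% to 100% of them. For Ccl2 that share was 21.5% to 45.1%, and for Ccl8 it was 51.2% to 79.3%. Over the 30 sums the genes most like Ccl4 were Lilr4b, Laptm5 and Sema4a (Spearman's rho 0.94, 0.90 and 0.89), those most like Ccl8 were Nfkbiz, Mmp19 and Gas6 (0.84, 0.81 and 0.81), and those most like Ccl19 were Ssx2ip, Arhgap24 and Acot1 (0.95, 0.94 and 0.93).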
